A study of Capra hircus with 8 samples.

Results

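Long non-coding RNAs (lncRNAs) were followed from the 4-cell to the 8-cell stage in cloned goat embryos. Cloning was by somatic cell nuclear transfer (SCNT), which puts a body cell nucleus into an egg cleared of its own. An lncRNA was taken when it reached 0.5 FPKM (fragments scaled to transcript length and library total) in at least 2 of the 4 SCNT libraries. Of the 6011 lncRNAs in the table, 1724 met this rule. They comprise 414 of 1505 annotated lncRNAs, which carry gene IDs, and 1310 of 4506 numbered lncRNAs, which carry lnc_ numbers. The 2 kinds are described separately, but they share the same fit and adjustment for multiple tests, and some counts cover both. The SCNT embryos gave 2 libraries at the 4-cell stage and 2 at the 8-cell stage, and embryos made by in vitro fertilisation (IVF) gave 2 libraries at each of the same stages. All 8 were Smart-seq2 libraries of polyadenylated RNA from embryos lysed without prior RNA extraction. The labels name Capra hircus, the stage and IVF or SCNT. The sources used here do not give donor cell type, breed, culture or the number of embryos per library. Nor do they say whether replicates are separate pools of embryos, so p-values measure only the spread between these libraries. Fewer cells or embryos and less RNA per cell cannot be told apart in such bulk samples.

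Before an embryo transcribes its own genome it lives on RNA stored in the egg. Around the 8-cell stage in the goat, embryonic genome activation begins while the stored RNA is degraded, so a transcript can fall by decay or rise by new synthesis between these stages. In cloned embryos the transferred nucleus must leave its somatic programme and start the embryonic one. lncRNAs are transcripts without a recognised coding sequence. Some act on chromatin or on neighbouring genes, and most have no known function.

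The totals behind the FPKM values came out similar between the libraries, though which reads they count is not given. Relative to SCNT 8-cell replicate 1, the totals recovered from the steps between low FPKM values ranged from 0.946 in IVF 4-cell replicate 1 to 1.07 in IVF 8-cell replicate 2, and the other SCNT libraries lay between 1.004 and 1.03. With these ratios, 98.6% of the annotated and 99.3% of the numbered lncRNAs gave whole reads in all libraries within 0.0001 read (proportionally more for large counts). The smallest whole numbers that fit had a median of 85 reads for annotated and 153 for numbered lncRNAs in the SCNT library where each was highest. The true numbers may be multiples of these, and PCR copies are counted as reads. Messenger RNA was available for the 8-cell stage alone. There, 15 of 15 measured oocyte and early embryo markers stood at 1 FPKM or more in both SCNT libraries. Their sums were 8073 and 12246 FPKM, against 8286 and 9663 FPKM in IVF. Both SCNT libraries lay above both IVF libraries for 12 of the 15 and below for 2. The 15 fibroblast markers summed to 102 and 109 FPKM in SCNT and to 136 and 125 FPKM in IVF, an order set by DCN (33.9 and 39.5 against 94.3 and 85.5 FPKM). Both SCNT libraries lay above both IVF libraries for 7 of the 15, among them TIMP1 (11.2 and 12.9 against 0.156 and 0.637 FPKM) and TAGLN (4.85 and 4.94 against 0.659 and 0.389 FPKM), and below for 2. The 9 measured cumulus and granulosa markers summed to 60.6 and 93.3 FPKM in SCNT and to 84.3 and 89.9 FPKM in IVF, with INHA, AMH and FSHR at 0. The 3 measured blood markers summed to 0.532 and 1.97 FPKM, and the 5 epithelial ones to 23.2 and 38.4 FPKM against 9.33 and 6.89 FPKM in IVF. The part of these cells in the lncRNA values was not tested.

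The median change of the lncRNAs between the stages of SCNT embryos was small. The median log2 difference, 8-cell minus 4-cell on log2(FPKM + 0.5), was 0.14 for the annotated and −0.08 for the numbered lncRNAs, against 0 for all 2611 lncRNAs tested (0.5 FPKM or more in at least 2 of the 8 libraries). The median size of the stage difference was 0.48 for annotated and 0.51 for numbered lncRNAs. Between the 2 SCNT 8-cell replicates the median size of the difference was 0.71 and 0.74, and between the 2 SCNT 4-cell replicates 0.32 and 0.38. The 8-cell pair was therefore the less alike. The stage difference is taken between means of 2 libraries and the replicate difference between single libraries. Averaging lowers the former, so the 2 sizes cannot be compared directly. Annotated lncRNAs stood a median of 0.46 higher in 8-cell replicate 2 than in replicate 1, and numbered ones 0.23 higher. The signs of both class medians depended on 1 library: without SCNT 8-cell replicate 1 they were 0.45 and 0.12, and without SCNT 8-cell replicate 2 they were −0.08 and −0.16.

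The number of lncRNAs detected hardly moved. Of the 414 annotated lncRNAs, 336 and 352 reached 0.5 FPKM in the 4-cell libraries and 347 and 375 in the 8-cell libraries. Of the 1310 numbered ones, 1050 and 1006 did so at 4 cells and 991 and 1043 at 8 cells. In both kinds the ranges of the stages overlapped. Across the 4 SCNT libraries, 260 annotated lncRNAs (62.8%) and 573 numbered ones (43.7%) reached 0.5 FPKM in every library. The rule was met through the 8-cell libraries alone by 32 annotated and 109 numbered lncRNAs, and through the 4-cell libraries alone by 11 and 76. For these the filter itself requires a difference between stages. At the edge of the rule, the second-highest SCNT value was 0.505 FPKM for LOC102180861 just inside and 0.499 FPKM for LOC102183064 just outside among annotated lncRNAs, and 0.5002 FPKM for lnc_2298 and 0.4998 FPKM for lnc_2129 among numbered ones.

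With all 4 SCNT libraries, more annotated lncRNAs were separated upward than downward. Both 8-cell libraries lay above both 4-cell libraries for 102 of 414, and both below for 78. Over all tested lncRNAs these arrangements took 16.6% upward and 18.6% downward, against 24.6% and 18.8% here. The 102 include the 32 taken through the 8-cell libraries alone, and the 78 include the 11 taken through the 4-cell libraries alone. The rule itself separates these, and all tested include lncRNAs that met the filter through IVF libraries. The excess upward is therefore not read as a direction of change. A log2 difference of 1 or more upward was seen in 53 annotated lncRNAs and downward in 25, or 12.8% and 6.04%, against 11.0% and 9.96% of all tested. Among the numbered lncRNAs more were separated downward, with 226 (17.3%) separated upward and 327 (25.0%) downward. These include the 109 and 76 taken through the 8-cell or the 4-cell libraries alone. The median was lowest among abundant numbered lncRNAs, a group formed after the values were seen. Of the 130 with a mean of 10 FPKM or more over the SCNT libraries, 43 were separated downward and 14 upward, with a median log2 difference of −0.28. That median stayed between −0.33 and −0.18 when any SCNT library was left out, and between −0.31 and −0.23 under 3 other scalings. The 79 annotated lncRNAs at that level had 18 upward, 17 downward and a median of 0.17. These are descriptions without a test.

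**Figure D1:**
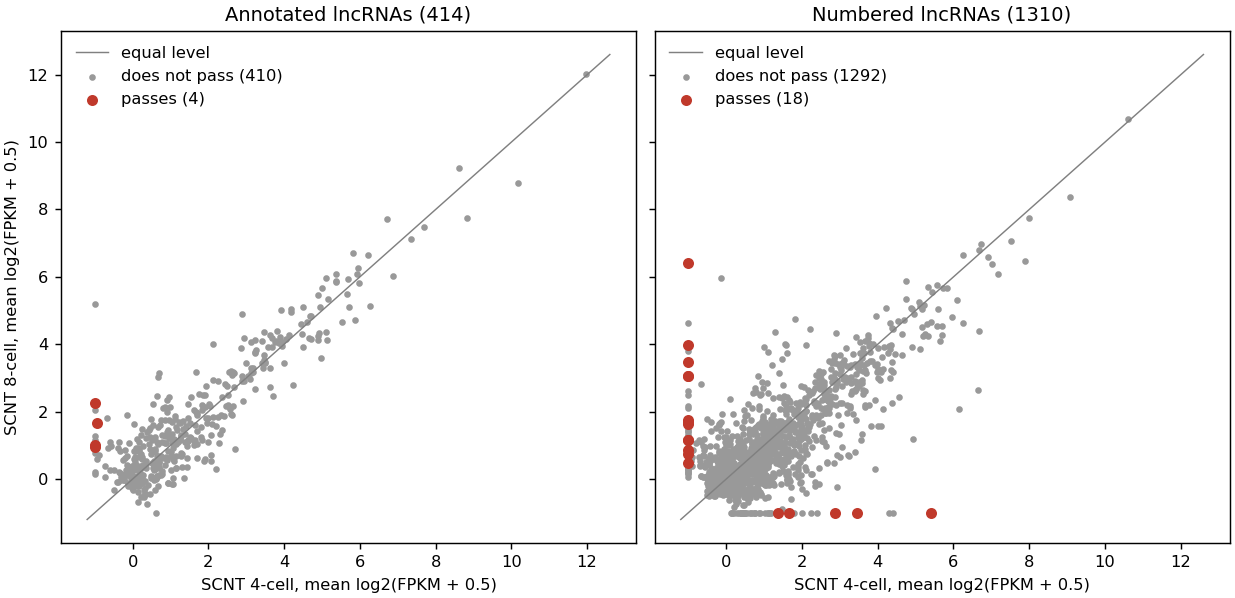
Each point is a lncRNA, placed by its mean log2(FPKM + 0.5) over the 2 SCNT 4-cell libraries (x axis) and the 2 SCNT 8-cell libraries (y axis), for 414 annotated (left) and 1310 numbered lncRNAs (right). Most points follow the line of equal level, and the red points that pass the test (4 and 18) lie on or next to the edges that mark 0 FPKM in a stage.

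The 5 most abundant annotated lncRNAs held between 61.1% and 70.5% of the summed FPKM of their class in the SCNT libraries, and the 5 most abundant numbered ones between 29.1% and 33.8%. LOC106502328, which lies next to BTNL9 in RefSeq, stood at 4346 and 3752 FPKM in SCNT 4-cell embryos and at 3815 and 4484 FPKM in SCNT 8-cell embryos. It alone held between 43.7% and 48.9% of the summed FPKM of the annotated lncRNAs in the SCNT libraries, and the stages overlapped (log2 difference 0.03 ± 0.24 SE, not passing). BTNL9 messenger RNA was at 0 and 0.223 FPKM in the SCNT 8-cell libraries. Among the numbered lncRNAs, lnc_3094 took the corresponding place, with 1751 and 1414 FPKM at 4 cells and 1510 and 1765 FPKM at 8 cells, between 17.0% and 21.2% of the class (0.05 ± 0.29 SE, not passing). Both were near level across the stages.

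Other abundant lncRNAs differed without passing. LOC102181209, which lies between the ephrin ligand gene EFNA5 and NUDT12, stood at 1241 and 1058 FPKM at 4 cells and at 559 and 342 FPKM at 8 cells. LOC102190531, between the translation initiation factor gene EIF2S2 and the pigmentation gene ASIP, stood at 503 and 417 FPKM and then at 278 and 162 FPKM. In both, each 8-cell library was below each 4-cell library, with log2 differences of −1.39 ± 0.58 and −1.11 ± 0.41 (SE) and limma adjusted p-values of 0.547 and 0.440. The numbered lnc_3069 had the same arrangement, from 261 and 212 to 117 and 67.7 FPKM (−1.39 ± 0.47, limma adjusted p = 0.387). The remaining abundant ones overlapped between stages. LOC108634143, next to the zinc finger gene ZNF25, had 400 and 386 FPKM at 4 cells and 395 and 932 FPKM at 8 cells. LOC102180967 overlaps the gene of the membrane glycoprotein CD200 and had 212 and 199, then 123 and 262 FPKM. The numbered lnc_3602 had 740 and 388, then 232 and 475 FPKM, lnc_416 had 263 and 249, then 296 and 152 FPKM, and lnc_4249 had 209 and 158, then 67.2 and 266 FPKM.

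Between the stages of SCNT development, 22 lncRNAs passed the test (limma, Benjamini-Hochberg adjusted p under 0.05 over all 2611 tested, or 0.843% of them). Of the annotated lncRNAs 4 of 414 passed, all higher at 8 cells, where 0.651% of all tested passed upward and 0.191% downward. Of the numbered lncRNAs 13 passed upward and 5 downward of 1310. All 22 calls in the table were among the 1724. Each of the 22 reached 0.5 FPKM in a single SCNT stage, and so met the rule only by differing between the stages. In 21 of the 22 both libraries of the other stage were listed at exactly 0, and 14 were at 0 in all 6 libraries outside the pair in which they appeared. Where both libraries of a group are at 0 their spread is 0, which can make the standard errors of these lncRNAs too small. At an unadjusted p under 0.05 there were 242 of all tested (9.27%), among them 55 annotated (40 higher and 15 lower) and 168 numbered (85 higher and 83 lower).

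**Figure D2:**
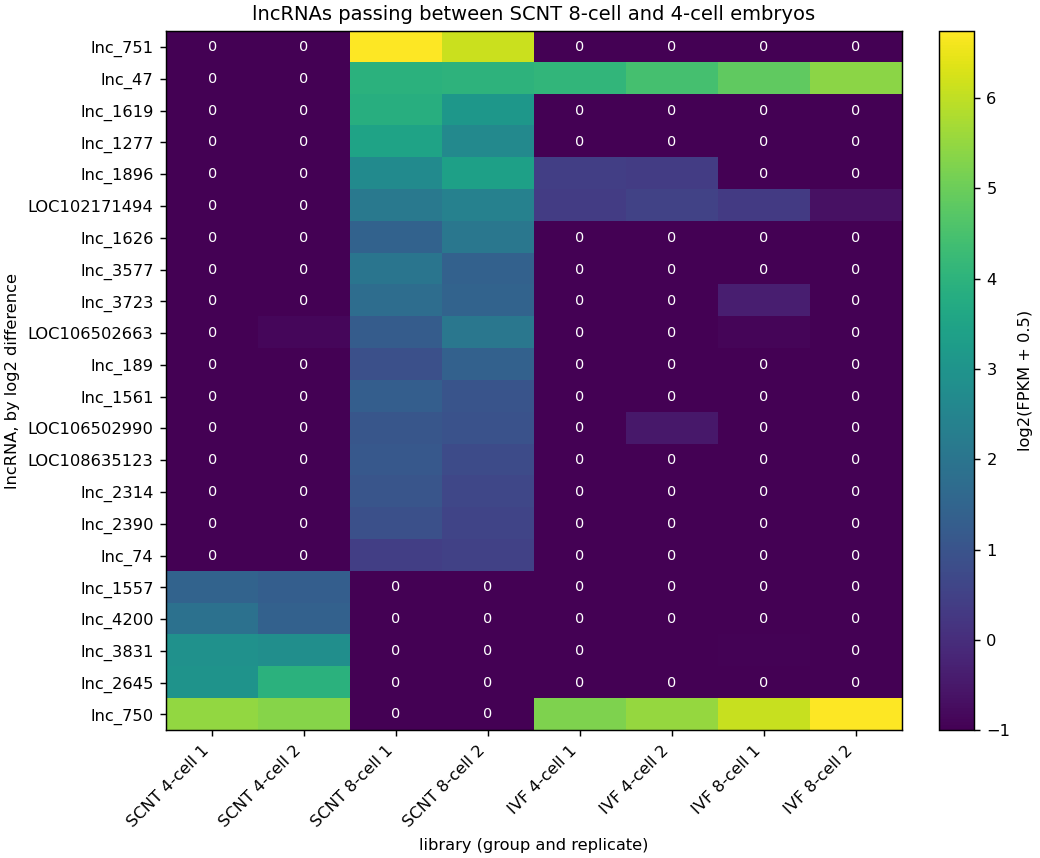
Rows are the 22 lncRNAs that passed, ordered by log2 difference, columns are the 8 libraries, and colour is log2(FPKM + 0.5), with 0 written where a library is listed at 0 FPKM. Apart from LOC106502663, every row is at 0 in both libraries of an SCNT stage, and lnc_47 and lnc_750 stand at 16.7 FPKM or more in all 4 IVF libraries.

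The 22 calls depended on which libraries entered the fit. With the SCNT libraries alone 0 lncRNAs passed in limma, and 269 had an unadjusted p under 0.05. Left out in turn, IVF 4-cell replicate 1 or 2 each left 3 of the 22 passing, SCNT 4-cell replicate 1 left 5 and SCNT 4-cell replicate 2 left 7. Without IVF 8-cell replicate 1 or 2, 20 of the 22 passed, and without SCNT 8-cell replicate 1 or 2, 21 did, while calls over the whole table rose to 34, 34, 71 and 53. The 3 that passed whichever library was left out were lnc_750, lnc_751 and lnc_47. The direction split over the table was 17 higher and 5 lower as deposited, 9 and 5 after median centring, 31 and 13 after rescaling to equal sums, and 25 and 13 after quantile normalization.

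The largest change was a swap between lncRNAs with consecutive numbers. lnc_751 was listed at 0 in both SCNT 4-cell libraries and at 106 and 68.7 FPKM in the SCNT 8-cell libraries, from at least 427 and 277 reads. It was at 0 in all 4 IVF libraries. lnc_750 stood at 44.4 and 39.7 FPKM in the SCNT 4-cell libraries, from at least 3322 and 2994 reads, and was listed at 0 in both SCNT 8-cell libraries. In IVF embryos lnc_750 remained present, at 37.4 and 45.5 FPKM at 4 cells and 67.8 and 106 FPKM at 8 cells. The fitted log2 differences were 7.43 ± 0.39 for lnc_751 and −6.41 ± 0.35 (SE) for lnc_750, with a limma adjusted p of 0.00123 for both. These fitted values depend on the pseudocount because a stage is at 0. FPKM is scaled to transcript length, and the lengths of the 2 are not given here. Their levels can therefore not be added or set against each other as amounts. In IVF 8-cell embryos lnc_750 came from at least 4824 and 8328 reads.

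Of 407 cases in which consecutive numbers were both expressed by the rule, 5 swapped in this way, with 1 listed at 0 in both 4-cell libraries and the other at 0 in both 8-cell libraries. What the order of the numbers stands for is not given in the sources used here, and these pairs were picked after the values were seen. Along with lnc_750 and lnc_751, lnc_1276 (1.25 and 1.85 FPKM at 4 cells) gave way to lnc_1277 (10.6 and 5.78 FPKM at 8 cells). lnc_1781 (1.15 and 1.48 FPKM) gave way to lnc_1780 (0.732 and 1.48 FPKM), and lnc_2406 (1.18 and 0.521 FPKM) to lnc_2405 (0.546 and 0.951 FPKM). lnc_2620 (3.601 and 4.86 FPKM) gave way to lnc_2619 (0.855 and 0.599 FPKM). Of these 10 lncRNAs, lnc_750, lnc_751 and lnc_1277 passed between the SCNT stages. In IVF embryos lnc_1276 stood at 0 and 3.55 FPKM at 4 cells and at 2.96 and 3.82 FPKM at 8 cells with lnc_1277 at 0 throughout. Between lnc_750 and lnc_751, and between lnc_2619 and lnc_2620, exactly 1 of the 2 was above 0 in each of the 8 libraries.

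**Figure D3:**
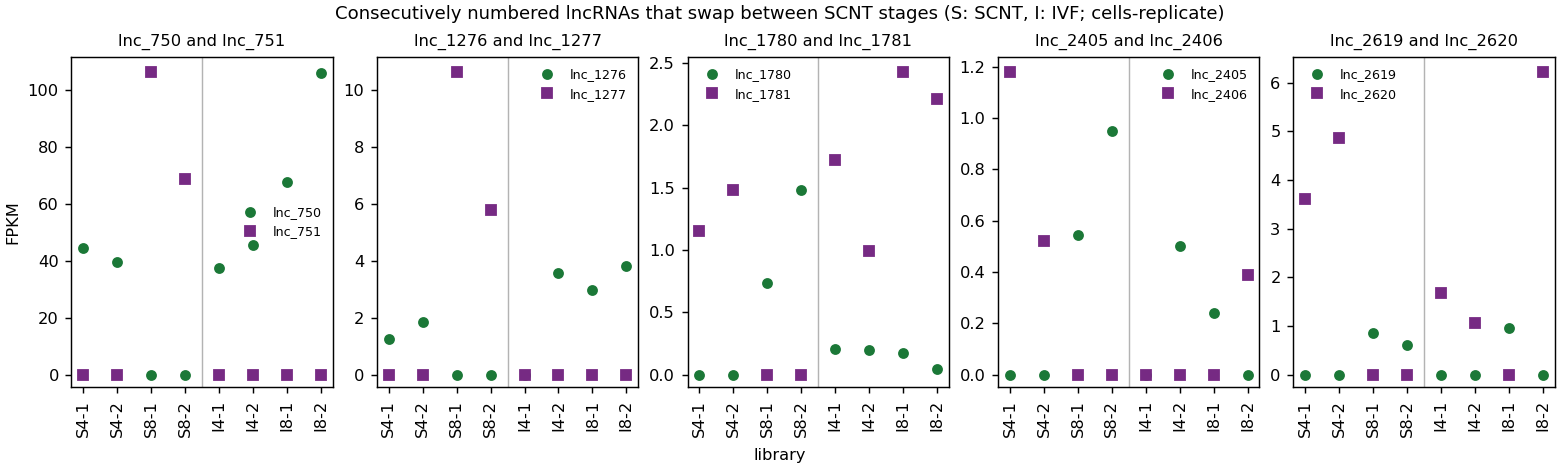
FPKM (y axis, linear, a separate scale per panel) of the 5 pairs of consecutively numbered lncRNAs in each of the 8 libraries (x axis; S is SCNT, I is IVF, the first digit the number of cells, the second the replicate). In every panel the circle and the square exchange the level of 0 between the 4-cell and 8-cell SCNT libraries, as lnc_750 (44.4 and 39.7, then 0 FPKM) and lnc_751 (0, then 106 and 68.7 FPKM) do.

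A further group of numbered lncRNAs appeared at the 8-cell stage. lnc_47 was listed at 0 in both SCNT 4-cell libraries and at 14.9 and 15.6 FPKM in the SCNT 8-cell libraries, from at least 504 and 530 reads (log2 difference 4.97 ± 0.35 SE, limma adjusted p = 0.00416). It was present in IVF embryos at both stages, at 16.7 and 21.5 FPKM at 4 cells and 28.3 and 41.3 FPKM at 8 cells, so the SCNT 4-cell pair was the exception among the 4 groups. lnc_1619 went from 0 to 14.0 and 8.01 FPKM (at least 755 and 434 reads), and lnc_1277 from 0 to 10.6 and 5.78 FPKM (at least 108 and 59 reads). lnc_1896 went from 0 to 6.08 and 10.1 FPKM (at least 129 and 215 reads). Outside the SCNT 8-cell libraries, lnc_1619 and lnc_1277 were at 0, and lnc_1896 was at 0.847 and 0.793 FPKM in IVF 4-cell embryos alone. Their limma adjusted p-values were 0.0104, 0.0118 and 0.0118. All 3 lost the call without an SCNT 4-cell library (0.0692 to 0.126) and without an IVF 4-cell library (0.0562 and 0.0626).

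The others that passed upward were lower in level. lnc_1626 stood at 2.19 and 3.74 FPKM, lnc_3577 at 3.48 and 2.15 FPKM and lnc_3723 at 2.92 and 2.28 FPKM in the SCNT 8-cell libraries, and all were at 0 at 4 cells. Below them in log2 difference, and named here although outside the rule for named lncRNAs, were lnc_189 (1.37 and 2.16 FPKM), lnc_1561 (1.97 and 1.505 FPKM), lnc_2314 (1.56 and 1.08 FPKM), lnc_2390 (1.36 and 1.02 FPKM) and lnc_74 (0.856 and 0.924 FPKM). For these 8 the limma adjusted p-values ran from 0.0263 to 0.0483, and the IVF libraries were at 0 apart from 0.291 FPKM of lnc_3723 in IVF 8-cell replicate 1. The smallest read numbers were low for the last ones, 12 and 13 for lnc_74. All 8 lost the call without either SCNT 4-cell library (0.161 to 0.219) and without either IVF 4-cell library (0.0780 to 0.102).

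Other 4-cell lncRNAs were no longer listed at 8 cells. lnc_2645 stood at 7.35 and 14.9 FPKM in SCNT 4-cell embryos (at least 118 and 241 reads), lnc_3831 at 7.04 and 6.59 FPKM, lnc_4200 at 3.22 and 2.14 FPKM and lnc_1557 at 2.23 and 1.98 FPKM, and all 4 were at 0 in both SCNT 8-cell libraries. In IVF embryos lnc_2645, lnc_4200 and lnc_1557 were at 0 in every library and lnc_3831 reached at most 0.0170 FPKM. Their limma adjusted p-values were 0.0118, 0.00853, 0.0246 and 0.0209. Without IVF 4-cell replicate 1 or 2 none of the 4 passed (0.0518 to 0.0802). Without SCNT 4-cell replicate 1, lnc_4200 and lnc_1557 did not pass (0.0526 for both).

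Among annotated lncRNAs, LOC102171494 had the largest change that passed. It lies between BHLHE41, which encodes a transcriptional repressor of the circadian clock, and RASSF8. It was listed at 0 in both SCNT 4-cell libraries and at 3.85 and 4.84 FPKM in the SCNT 8-cell libraries, from at least 76 and 96 reads, and IVF embryos had 0.803 and 0.951 FPKM at 4 cells and 0.731 and 0.142 FPKM at 8 cells. All IVF values lay between those of the SCNT stages. The log2 difference was 3.27 ± 0.45 (SE, limma adjusted p = 0.0378). At 8 cells RASSF8 messenger RNA stood at 78.0 and 25.3 FPKM in SCNT and BHLHE41 at 0.0895 and 0.208 FPKM. The call was lost without any SCNT library (0.0565 to 0.219) or either IVF 4-cell library (0.0942 and 0.102).

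LOC106502663 overlaps ZDHHC12, a palmitoyltransferase gene, and ZER1 in RefSeq, and went from 0 and 0.0465 to 1.90 and 3.71 FPKM. Where genes overlap, reads of the 2 cannot be told apart unless strand is used, which is not stated for these counts. ZDHHC12 messenger RNA stood at 2.98 and 9.40 FPKM in the same SCNT 8-cell libraries, and its 4-cell level was not analysed here. LOC106502990, between IVNS1ABP and the extracellular matrix gene HMCN1, went from 0 to 1.59 and 1.41 FPKM. LOC108635123, which RefSeq does not place on a chromosome, went from 0 to 1.69 and 1.21 FPKM. The log2 differences of the 3 ran from 1.95 ± 0.26 (SE) for LOC108635123 to 2.60 ± 0.36 for LOC106502663, and the limma adjusted p-values from 0.0363 to 0.0456. All 3 lost the call without either SCNT 4-cell library (0.190 to 0.243) and without either IVF 4-cell library (0.0780 to 0.102). LOC106502663 and LOC106502990 also lost it without either IVF 8-cell library (0.0520 to 0.0648).

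Some lncRNAs with larger differences did not pass. LOC106503869 was listed at 0 in both SCNT 4-cell libraries and at 27.7 and 46.2 FPKM in the SCNT 8-cell libraries, from at least 580 and 972 reads. In IVF embryos it stood at 1.87 and 0.0472 FPKM at 4 cells and at 38.7 and 4.06 FPKM at 8 cells, higher at 8 cells in both but spread over a wide range. The log2 difference in SCNT was 6.18 ± 1.12 (SE, limma adjusted p = 0.0817), and the protein-coding gene next to it in RefSeq, LOC108633801, stood at 7.57 and 6.48 FPKM in SCNT 8-cell and at 0 and 0.521 FPKM in IVF 8-cell embryos. Among numbered lncRNAs, singled out after the values were seen, lnc_2217 went from 0.340 and 0.493 to 49.0 and 78.5 FPKM (6.10 ± 1.53, limma adjusted p = 0.211) and stood at 2.67, 2.98, 111 and 2.39 FPKM in the 4 IVF libraries. lnc_1098 went from 0 to 32.5 and 18.5 FPKM (5.64 ± 1.05, limma adjusted p = 0.0848), with 8.28 and 1.14 FPKM in IVF 4-cell and 45.3 and 7.74 FPKM in IVF 8-cell embryos. In these 3 the SCNT stages did not overlap, and the IVF replicates differed widely.

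No annotated lncRNA passed downward by limma, with 15 lower at an unadjusted p under 0.05. The 5 with the largest negative differences without overlap at an unadjusted p under 0.05 are given as values. LOC108634236, between PRDM10 and APLP2, the gene of an amyloid precursor-like protein, had 5.41 and 6.74 FPKM at 4 cells and 1.84 and 0.976 FPKM at 8 cells. LOC108637502, between LMBRD1 and LOC108637488, had 1.04 and 1.04 FPKM and then 0 in both, from at least 9 and 9 reads. LOC106502388, which overlaps TEK, the angiopoietin receptor gene, had 3.36 and 4.00, then 0.965 and 0.937 FPKM. LOC102186366, which overlaps the scaffold protein gene MAGI2, had 19.3 and 17.4, then 9.93 and 4.10 FPKM, while the IVF libraries stood at 17.6 and 14.9, then 25.9 and 24.4 FPKM. At 8 cells TEK messenger RNA stood at 18.8 and 31.5 FPKM in SCNT and MAGI2 at 5.32 and 6.37 FPKM. The part of reads from these overlapping genes was not tested. LOC102188976, next to CGGBP1, had 3.76 and 2.70, then 0.887 and 0.994 FPKM. The log2 differences ran from −1.82 to −1.36 and the limma adjusted p-values from 0.0848 to 0.511. LOC108637502 passed (limma adjusted p in parentheses) without IVF 8-cell replicate 1 (0.0391) or 2 (0.0442), after rescaling to equal sums (0.0428) and after quantile normalization (0.0443). LOC102186366 passed without SCNT 8-cell replicate 1 (0.0314).

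Exact zeros marked the numbered lncRNAs much more than the annotated ones. At least 1 of the 4 SCNT libraries was at 0 for 37 of 414 annotated lncRNAs (8.94%) and for 512 of 1310 numbered ones (39.1%). The gap held at high level: where the highest SCNT library reached 10 FPKM or more, 1 of 92 annotated lncRNAs (1.09%), LOC106503869, and 51 of 213 numbered ones (23.9%) had a library at 0. Most numbered lncRNAs with a zero did not have both libraries of a stage at 0. A single zero cannot follow the stage, so the counts do not show whether zeros went with it. A single library was at 0 for 291, 1 library of each stage for 118, both 4-cell libraries for 63 and both 8-cell libraries for 40. For the annotated lncRNAs these counts were 17, 6, 13 and 1.

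**Figure D4:**
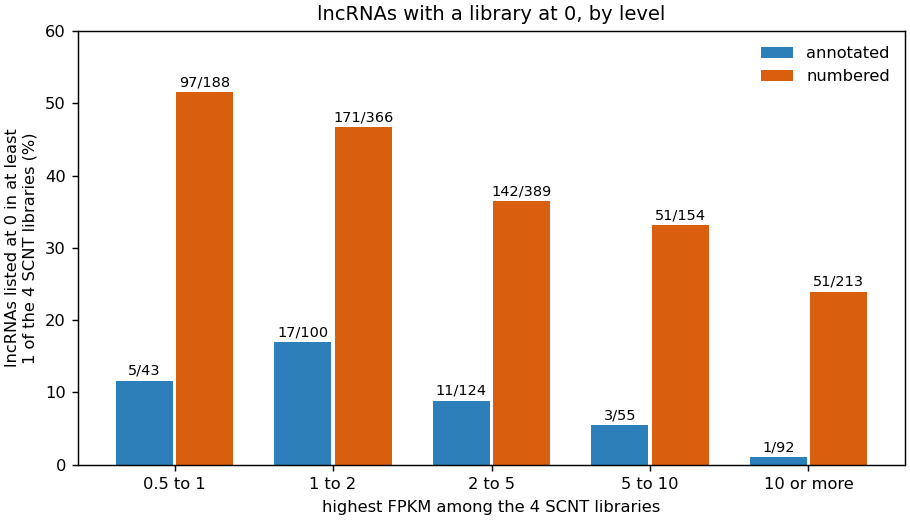
Percentage (y axis) of annotated (blue) and numbered (orange) lncRNAs listed at 0 in at least 1 of the 4 SCNT libraries, by the highest FPKM among those libraries (x axis); numbers above the bars are lncRNAs with a 0 over lncRNAs in the bin. The numbered bars fall from 51.6% to 23.9% with level and the annotated ones stay at or below 17.0%.

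Presence in a single stage was rarer. At 0.5 FPKM or more in both SCNT 8-cell libraries and 0 in both SCNT 4-cell libraries stood 13 annotated and 63 numbered lncRNAs, and the reverse held for 1 and 40. In IVF embryos the same definition gave 4 annotated and 87 numbered lncRNAs at 8 cells and 1 and 45 at 4 cells. Of the 63 gained in SCNT, 25 were at 0 in all other libraries, and of the 40 lost, 9 were. lnc_3712, which the series title names, did not meet the rule: it was listed at 0 in both SCNT 4-cell libraries and at 0.465 and 0.863 FPKM at 8 cells. All IVF libraries listed it at 0. Of 32, 18 and 31 symbols of known lncRNAs (hosts of small RNAs, imprinted or X inactivation RNAs, and others), 0 were found under these names in the table.

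The stage change of SCNT embryos was set against that of IVF embryos, with which it shares no library, by testing the difference of the 2 changes in the same fit. That difference passed for 11 of the 1724 lncRNAs (0.638%), 1 annotated and 10 numbered (limma adjusted p under 0.05). Over all 2611 tested it passed for 15 (0.574%). In IVF embryos 8 of the 1724 lncRNAs passed between the stages (0.464%), and 38 of all 2611 tested (1.46%). The 1724 were chosen by their level in SCNT libraries, so the 8 are not set against the 22. Of the 8, 0 were among the 22 of SCNT embryos, and with counts this small the lack of overlap shows nothing. Of the 22, 8 also passed the test of the difference. Those were lnc_751, lnc_750, lnc_47, lnc_1619, lnc_1277, lnc_1896, lnc_2645 and lnc_3831. The other 14 were not shown to differ between the 2 kinds of embryo.

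The remaining 3, LOC108637654, lnc_4139 and lnc_2121, did not pass between the stages of SCNT embryos and did so in IVF embryos (limma adjusted p of 0.0389, 0.0106 and 0.0106). LOC108637654, between EIF3M, a translation initiation factor subunit gene, and the Wilms tumour gene WT1, stood at 0.943 and 0.935 FPKM at 4 cells and 3.28 and 5.34 FPKM at 8 cells in SCNT. In IVF it went the other way, from 6.52 and 4.51 to 0.413 and 0 FPKM. The stages did not overlap in either kind of embryo, and the difference of changes was 4.84 ± 0.67 (SE, limma adjusted p = 0.0486). lnc_4139, outside the rule for named lncRNAs, stayed at 4.56, 4.48, 4.15 and 4.37 FPKM across the SCNT libraries while IVF went from 6.78 and 10.5 FPKM to 0 in both (4.08 ± 0.52, limma adjusted p = 0.0409). lnc_2121 stood at 26.9 and 14.9, then 12.2 and 19.1 FPKM in SCNT and went from 0 in both to 22.2 and 41.5 FPKM in IVF (−6.32 ± 0.69, limma adjusted p = 0.0361). The count of 11 became 0 when either SCNT 4-cell library or IVF 4-cell replicate 2 was left out, with 150, 167 and 210 lncRNAs at an unadjusted p under 0.05. Leaving out an SCNT 8-cell library (replicate 1, then 2) gave 57 and 39, and leaving out an IVF 8-cell library (replicate 1, then 2) gave 26 and 14. Leaving out IVF 4-cell replicate 1 gave 9, of which 1 was higher and 8 were lower, against 7 higher and 4 lower among the 11.

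**Figure D5:**
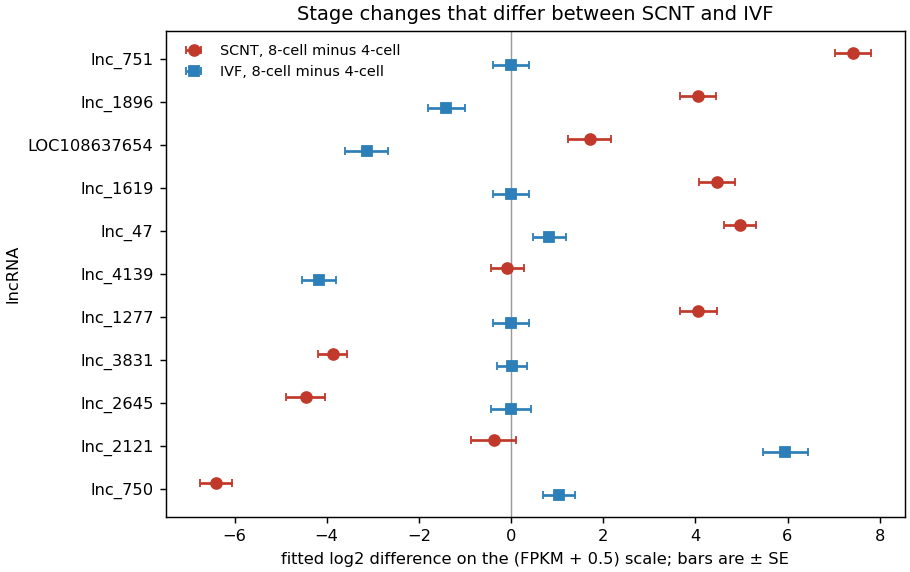
Fitted log2 differences between the 8-cell and 4-cell stage (x axis, on log2(FPKM + 0.5)) in SCNT (circles) and IVF embryos (squares) for the 11 lncRNAs (y axis) whose changes differed, with bars of ± SE. LOC108637654 lies on opposite sides of 0 in the 2 kinds of embryo, while lnc_4139 and lnc_2121 are near 0 in SCNT and far from it in IVF.

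Annotated lncRNAs were also divided by whether they overlap a protein-coding gene. Of the 414, 100 overlapped a protein-coding gene in RefSeq, 299 were placed without such an overlap and 15 were unplaced. The medians of the log2 difference were 0.11, 0.16 and 0.10. Both 8-cell libraries lay above both 4-cell libraries for 24, 73 and 5 and below for 20, 54 and 4. These counts are a description with no test.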

How the data were processed

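The authors deposited FPKM tables, named as such in the file headers. Tools listed in the submitters' processing notes, with no role stated, were HTSeq, fastp and HISAT2 2.2.1. The sources used here do not give the build, the annotation, the total behind the scaling or how the numbered lncRNAs were assembled, so no coordinates or sequences are printed. The 414 annotated IDs were paired with names through identical 8-cell values in the annotated table, and all were found in RefSeq for goat, which served for neighbouring genes only.

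Tests used limma 3.58.1 in R 4.3.3 (lmFit, eBayes with trend) on log2(FPKM + 0.5) of all 8 libraries, 4 groups of 2, for lncRNAs that reached 0.5 FPKM in 2 or more libraries, two-sided, with Benjamini-Hochberg adjustment over the 2611 tested and a threshold of 0.05. The procedure was tested on simulated data, in which every built-in rise started from a mean level above 0. That test therefore does not bear on rises from 0, the form of most calls between the SCNT stages. The members and lists were chosen with earlier results of these data known. Named lncRNAs were, for each kind, up to 8 passing without overlap per direction (filled to 5 from those at an unadjusted p under 0.05), the 5 most abundant, up to 4 per direction whose stage changes differed, and lnc_3712. Differences on the log2(FPKM + 0.5) scale understate ratios at low level, and no fold is given against 0. Alternatives covered the pseudocount, the filter, scaling, the variance trend, the libraries fitted and a replicate block.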

Additional observations from a re-analysis of the deposited data

Results flagged for a closer look

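The change from 4 to 8 cells differed between SCNT and IVF embryos for 11 of the 1724 lncRNAs (0.638%). The test was that of the difference itself (limma, adjusted p under 0.05), and 15 of all 2611 tested passed it (0.574%). In 8 of the 11 both libraries of an SCNT stage were at 0, so these met the rule through the other stage alone. The difference of changes on the log2 scale, SCNT minus IVF, was 7.43 for lnc_751, 5.46 for lnc_1896, 4.84 for LOC108637654, 4.47 for lnc_1619, 4.14 for lnc_47, 4.08 for lnc_4139 (4.085 before rounding) and 4.06 for lnc_1277. It was −3.89 for lnc_3831, −4.46 for lnc_2645, −6.32 for lnc_2121 and −7.44 for lnc_750. A group listed at 0 in both libraries enters 10 of the 11, all but LOC108637654, so these values depend on the pseudocount and are not folds. With 2 libraries a group, single outlying libraries could not be sought.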

How the results depend on the processing

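The count of lncRNAs passing between the SCNT stages moved by more than 1.5 times under most alternatives. Over all tested it was 22 as reported, 43 with a pseudocount of 0.1 FPKM, 14 with a filter of 1 FPKM, 8 without a filter, 14 after median centring (9 higher, 5 lower), 44 after rescaling to equal sums (31 and 13), 38 after quantile normalization (25 and 13), 14 without the variance trend and 0 with the SCNT libraries alone. Leaving out a library gave 3 to 71. For annotated lncRNAs the count of 4 became 1 with the filter of 1 FPKM and without the trend, 0 without a filter, 2 after centring, 7 after rescaling and 0 with the SCNT libraries alone, and 0 to 10 with a library left out. Where it was 0 in limma, 32 to 55 annotated lncRNAs had an unadjusted p under 0.05. For numbered lncRNAs the count of 18 became 39 with the pseudocount of 0.1 FPKM, 8 without a filter, 37 after rescaling, 32 after quantile normalization, 0 with the SCNT libraries alone (171 at an unadjusted p under 0.05), and 3 to 56 with a library left out. The 11 lncRNAs whose stage changes differed became 4 with a pseudocount of 1 FPKM, 3 without a filter, 17 after quantile normalization and 0 to 57 with a library left out. The median of that difference over the 1724 was −0.19 as deposited and 0.06, 0.15 and 0.11 after centring, rescaling and quantile normalization. The cause was not tested.

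With the replicate number as a block, 8 lncRNAs passed over all tested (5 higher, 3 lower), 0 annotated, 8 numbered and 2 for the difference of changes. The labels give the groups the same numbers without saying that a number marks anything shared. The replicate differences of the SCNT stages correlated at 0.04 for annotated and −0.05 for numbered lncRNAs, so no pairing was assumed.

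With presence set at 1 FPKM, 30 numbered lncRNAs were in the SCNT 8-cell stage alone and 21 in the 4-cell stage alone. With the rule at 0.1 FPKM, 760 annotated and 2252 numbered lncRNAs were taken.

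The 22 that passed kept their direction in all 395 alternative values, 152 of which did not pass. The direction of these 22 could hardly have turned, so its keeping is no sign of stability. Each reached 0.5 FPKM in a single SCNT stage, and 21 were at 0 in both libraries of the other. Leaving out an IVF library does not alter the fitted SCNT difference. Among the 26 other named lncRNAs, 10 of 464 values turned direction. LOC102180967 was 0.15 after quantile normalization, and LOC106502328 was −0.000461 after centring. With single libraries left out, log2 differences ranged from −0.7428 to 0.3506 for LOC102180967, from −0.0821 to 0.151 for LOC106502328, from −1.428 to 0.5478 for lnc_4249, from −0.7937 to 0.04095 for lnc_2121, from −0.7476 to 0.2096 for lnc_416 and from −0.1012 to 0.2072 for lnc_3094. Also turned were LOC106502328 without SCNT 4-cell replicate 2 (−0.07157) and lnc_3094 without SCNT 8-cell replicate 2 (−0.05956). With 2 libraries a group and depth known only as ratios, a value of 0 cannot be given a detection limit.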
